A study of Mus musculus with 24 samples.

Results

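Collagen chain genes encode the subunits of the collagens, the proteins that form most of the connective tissue scaffold between and around muscle fibres. Their members here were the rows whose gene symbol has the form Col, a type number, a and a chain number, and whose mean estimated count over the 24 libraries was at least 10. Of 36172 gene models, 43 matched the symbol and 33 reached that mean, and all 33 were among the 13048 genes tested. They were grouped into 9 fibrillar, 7 basement membrane and 17 other chains. The rows nearest the threshold were Col24a1, Col4a3 and Col13a1 above it, with mean counts of 14.8, 17 and 19.6, and Col17a1, Col27a1 and Col4a6 below it, with 9.65, 8.58 and 7.42. RNA was sequenced from gastrocnemius, a calf muscle, of C57BL/6 mice in 6 groups of 4 libraries. The wild-type (WT) groups carried the floxed Notch2 alleles Notch2f/f, and the Notch2-mKO groups carried Mlc1fCre/+;Notch2f/f, in which Cre recombinase is driven from the Mlc1f locus of skeletal muscle fibres, so that cells other than fibres are not its target. Each genotype had an untreated control group, a group suspended by the hindlimbs for 7 days (unloading) and a group taken 14 days after a single intraperitoneal injection of streptozotocin (STZ) at 150 mg per kg, a toxin of insulin-producing beta cells (diabetes). The labels give no age or sex. They do not say whether libraries came from separate mice, so a p-value here speaks only of the scatter among these libraries, which may be partly technical.

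A collagen chain winds with others into a triple helix. Fibrillar chains (types I, III, V, XI and XXIV here) build the load-bearing fibrils of tendon and of the muscle's connective tissue sheaths, and in muscle they are made mainly by fibroblasts and tendon cells, not by the fibres. Type IV chains form the network of the basement membrane around each fibre and capillary, with types XV and XVIII attached to it, and type VI forms beaded filaments that link the basement membrane to the surrounding matrix. The other chains include the fibril-associated collagens (FACIT), the short-chain network formers of type VIII, the anchoring fibril chain of type VII and the transmembrane chains.

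Library totals ran from 33112459 to 56369917 estimated counts. CPM is the depth-scaled count of a gene, with TMM factors. Without those factors, 3 counts amount to 0.0906 CPM at the lowest total. The 8 marker genes of muscle fibres, such as Ckm and Acta1, summed to 234420.0 to 286260.0 CPM in the WT controls, so the markers of the labelled tissue were abundant. Notch2 itself, the targeted gene, stood at 1.83, 1.76, 1.87 and 1.92 CPM in the WT controls, 2.02, 1.34, 1.97 and 1.71 after unloading and 1.74, 2.18, 3.18 and 2.0 in diabetes, and at 2.12, 1.25, 1.55 and 2.55, 1.47, 1.38, 1.58 and 1.29 and 1.7, 2.16, 1.15 and 2.12 CPM in the same Notch2-mKO groups. The genotypes overlapped in all 3 conditions, and no difference passed the test (log2 fold change 0.019 ± 0.24, adjusted p = 0.993, -0.3 ± 0.24, adjusted p = 0.696, and -0.36 ± 0.23, adjusted p = 0.878). The value sums reads over the full gene from fibres and all other cells, so it is no check of the genotype labels, and groups are named as labelled. In whole muscle, fewer cells of a type and less RNA per cell cannot be told apart. Libraries differed by base composition: an index of AT-rich over GC-rich genes (mean log2 deviation of 1491 genes under 42% GC minus that of 2373 genes over 56% GC) was -0.605 ± 0.306 in the WT controls, 0.380 ± 0.070 after unloading and 0.348 ± 0.131 in diabetes (SD, n = 4). The Notch2-mKO groups stood at -0.290 ± 0.241, 0.027 ± 0.196 and 0.140 ± 0.134 in the same order. The members were GC-rich, with a median of 55.1% against 49.96% over the genes tested, so calls are also given from a fit with offsets for base composition and transcript length in each library (the adjusted fit). Notch2-mKO control library 4 was the highest of its group for 22 of the 33 members, WT unloading library 4 for 25, and WT diabetes library 3 was the lowest for 22. The part of base composition and of these libraries in the results was not tested beyond the values given beside them.

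Promoter sequence is shown for 4 chains (the fibrillar Col1a2 and Col3a1, and Col6a1 and Col8a2 of the other chains) that fell in at least 3 of the 4 treatment comparisons below, so that what they share upstream of the start can be seen. The set of promoter windows used, on RefSeq GRCm38.p6 (the assembly also named mm10), held an entry for 27 of the 33 members. The 250 bases upstream of the start site are written 5′ to 3′ on the gene's strand, for Col1a2 at chr6:4505368-4505617 (+), Col3a1 at chr1:45311288-45311537 (+), Col6a1 at chr10:76726045-76726294 (-) and Col8a2 at chr4:126286544-126286793 (+). Capitals mark 3 motifs, read on both strands: the CCAAT box (CCAAT), the GC box bound by Sp factors (GGGCGG) and the TATA box in its commonest form (TATAAA).
Col1a2: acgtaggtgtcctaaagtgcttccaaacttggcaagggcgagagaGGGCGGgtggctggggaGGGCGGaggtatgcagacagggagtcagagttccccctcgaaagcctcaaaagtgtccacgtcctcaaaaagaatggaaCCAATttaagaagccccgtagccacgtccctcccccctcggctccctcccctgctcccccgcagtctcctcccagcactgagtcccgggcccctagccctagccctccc
Col3a1: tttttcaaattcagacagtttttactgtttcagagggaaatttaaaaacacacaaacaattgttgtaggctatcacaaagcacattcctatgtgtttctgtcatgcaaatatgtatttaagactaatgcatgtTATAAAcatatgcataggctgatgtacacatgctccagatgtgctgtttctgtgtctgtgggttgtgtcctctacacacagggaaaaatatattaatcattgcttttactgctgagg
Col6a1: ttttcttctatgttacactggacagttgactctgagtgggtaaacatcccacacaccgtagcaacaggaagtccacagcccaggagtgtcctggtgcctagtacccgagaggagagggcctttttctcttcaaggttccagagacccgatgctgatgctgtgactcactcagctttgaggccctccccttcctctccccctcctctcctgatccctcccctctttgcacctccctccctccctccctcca
Col8a2: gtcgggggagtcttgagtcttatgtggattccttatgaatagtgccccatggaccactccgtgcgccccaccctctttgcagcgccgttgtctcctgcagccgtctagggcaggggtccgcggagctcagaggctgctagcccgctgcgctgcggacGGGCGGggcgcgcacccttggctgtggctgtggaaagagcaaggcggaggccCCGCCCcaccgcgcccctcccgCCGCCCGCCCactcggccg
Col1a2 held a pair of GGGCGG matches and a CCAAT match upstream, Col8a2 held 4 GGGCGG matches of which the last pair overlap, Col3a1 held a single TATAAA match, and Col6a1 held none of the 3. No motif was shared by all 4. Over the window from 250 bases before to 50 after the start, GGGCGG occurred in 16 of the 27 members with an entry (59.3%) and in 35.7% of all 32851 windows, CCAAT in 10 of 27 (37.0%) and in 37.4%, and TATAAA in 3 of 27 (11.1%) and in 13.6%. A member was counted where any of its windows matched, and Col6a2, Col9a1 and Col18a1 had more than 1 window. The share over all was counted window by window, which is an unlike count. A match is a match of letters and was not tested as a binding site.

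In the 4 comparisons of a treatment with the controls of the same genotype, every collagen chain gene that passed the test was lower in the treated muscle and none was higher, where 18.4%, 17.8%, 4.11% and 3.05% of all genes were called higher. In WT, 20 of 33 fell after unloading, against 16.3% of all genes tested that were called lower, and 19 of 33 fell in diabetes, against 15.5%. In Notch2-mKO, 13 of 33 fell after unloading, against 3.2% of all genes, and 17 of 33 in diabetes, against 2.54%. The median log2 fold change of the members was -1.28 and -1.03 in WT and -0.98 and -1.07 in Notch2-mKO, for unloading and diabetes, while the medians over all genes tested were -0.019, -0.015, 0.021 and -0.0064. A gene counts as called, or as having passed the test, when its p from the quasi-likelihood test of edgeR, adjusted over all genes by Benjamini and Hochberg, is under 0.05.

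Of the 9 fibrillar chains, 8 were called in WT unloading, in WT diabetes and in Notch2-mKO diabetes, but 3 in Notch2-mKO unloading. Of the 7 basement membrane chains, 4, 4, 2 and 3 were called in WT unloading, WT diabetes, Notch2-mKO unloading and Notch2-mKO diabetes. Of the 17 other chains, 8, 7, 8 and 6 were called in the same order. The 10 chains that fell in all 4 comparisons were Col1a1, Col1a2, Col11a1, Col4a1, Col4a2, Col6a1, Col6a2, Col6a3, Col8a2 and Col16a1. Unloading and diabetes of a genotype share their 4 control libraries. Another 7 fell in 3, 2 fell in 2, 4 fell in 1 and 10 in none. Counted without a test, all 4 treated libraries lay below all 4 controls for 21 members in WT unloading (16.0% of all genes), 17 in WT diabetes (14.1%), 16 in Notch2-mKO unloading (6.23%) and 18 in Notch2-mKO diabetes (9.18%).

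The counts in Notch2-mKO rested more on single libraries than those in WT. With each library left out in turn, the number called ran from 16 to 21 in WT unloading and from 16 to 19 in WT diabetes, but from 3 to 14 in Notch2-mKO unloading and from 4 to 18 in Notch2-mKO diabetes. Without Notch2-mKO control library 4, 3 members were called after unloading and 4 in diabetes. The unloading count was 6, 5 and 6 without unloading libraries 1, 2 and 4, and the diabetes count was 11, 11 and 6 without diabetes libraries 2, 3 and 4. Col8a2, Col11a1 and Col16a1 kept the unloading call in Notch2-mKO, and Col1a1, Col1a2, Col5a3 and Col11a1 the diabetes call, with any 1 library left out. Of the other fits, limma on the log2 values of the authors called 13 members in each WT comparison, 0 in Notch2-mKO unloading and 6 in Notch2-mKO diabetes, and a fit of only the groups compared called 8 in Notch2-mKO unloading. The shares of all genes called in these fits, and with a library left out, are not given here. The lower counts are therefore not shown to be particular to the collagen chains. In the adjusted fit, 19, 16, 11 and 17 members were called, in the order given above. Of all genes, 13.2%, 12.5%, 3.4% and 2.22% were called lower in that fit, and 14.0%, 12.8%, 4.14% and 2.23% higher. Its 6 lost calls were Col22a1 in WT unloading, Col11a2, Col16a1 and Col13a1 in WT diabetes, and Col6a2 and Col6a6 in Notch2-mKO unloading (adjusted p from 0.0609 to 0.18), which left 7 of 9 fibrillar chains called in WT diabetes.

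**Figure D1:**
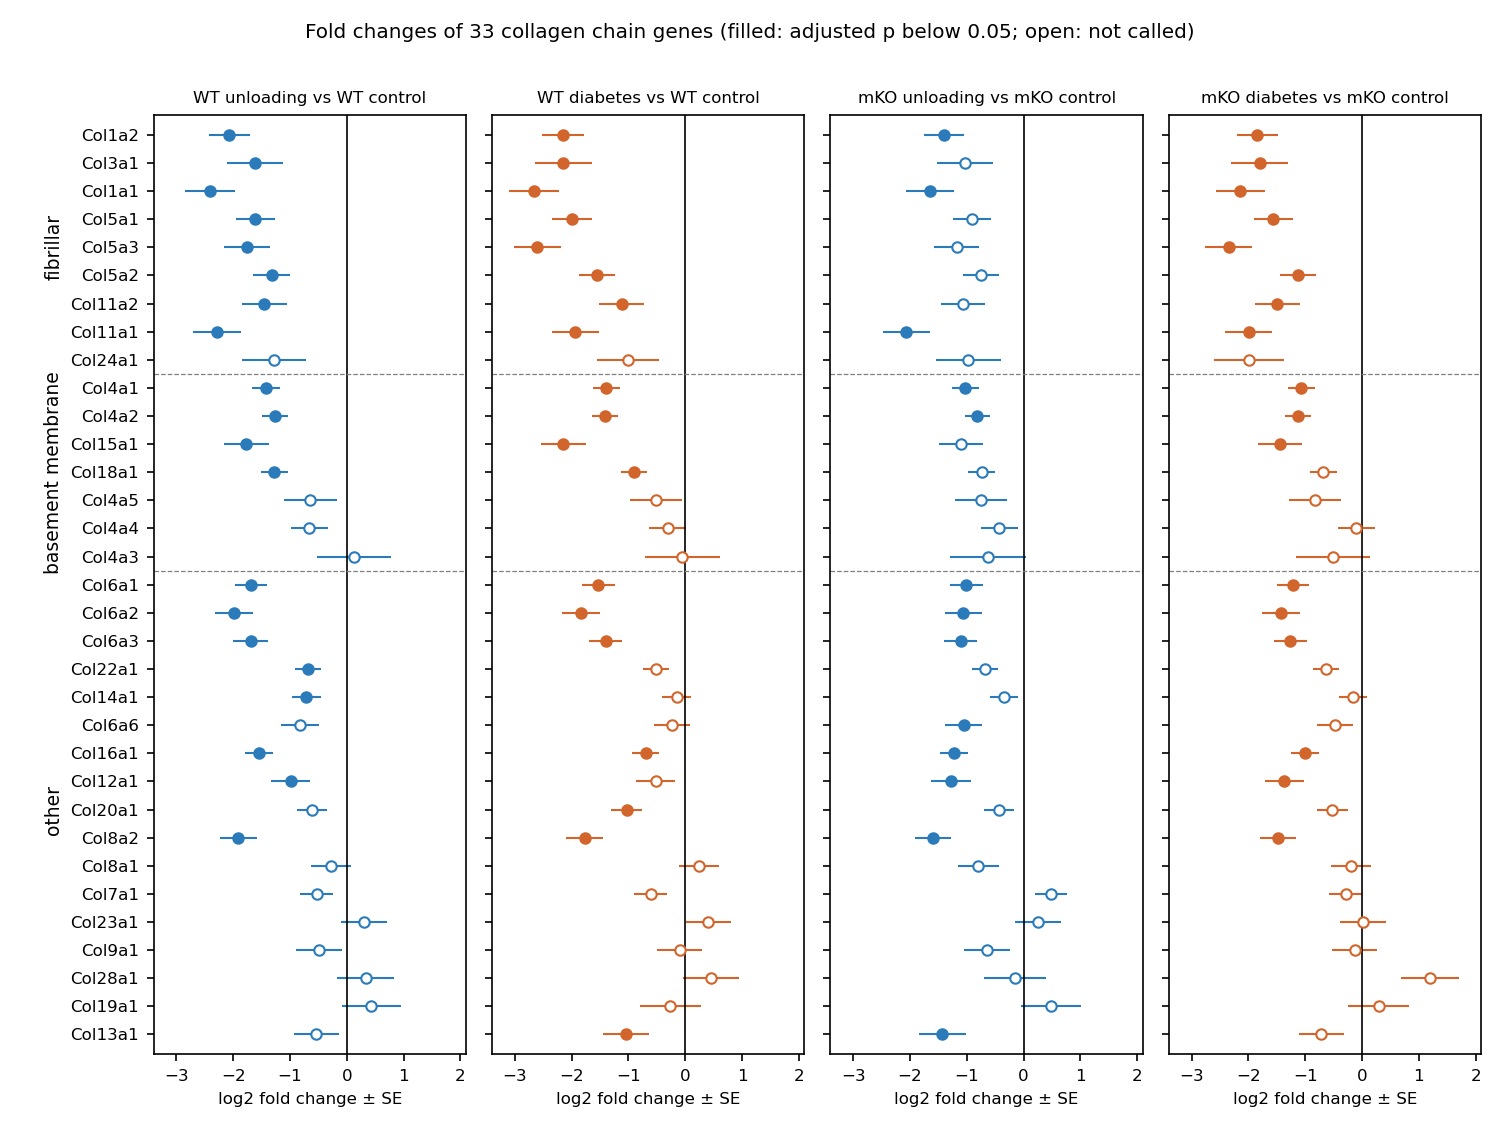
Log2 fold change (x axis) with its standard error for each of the 33 collagen chain genes (rows, by class and mean count) in the 4 comparisons of treated with control muscle. Filled points passed the test: 20 and 19 in WT and 13 and 17 in Notch2-mKO, all to the left of 0.

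Per length, the most abundant chains in the WT controls were Col1a2 at 58.5 ± 9.69 CPM per kb of transcript (SD, n = 4), Col1a1 at 37.9 ± 5.19 and Col3a1 at 35.6 ± 4.07. Col4a1 at 28.9 ± 4.1, Col4a2 at 28 ± 3.87, Col6a1 at 28 ± 2.1 and Col6a2 at 23.6 ± 1.48 CPM per kb followed. Within each of the runs Col1a1 and Col3a1, and Col4a1, Col4a2 and Col6a1, neighbours differed by less than their SD. The next levels were 9.02 ± 1.23 for Col15a1, 6.07 ± 0.638 for Col5a1, 5.01 ± 0.35 for Col6a3, 4.14 ± 0.998 for Col5a3, 2.79 ± 0.494 for Col5a2, 2.55 ± 0.178 for Col22a1, 2.08 ± 0.16 for Col18a1 and 1.62 ± 0.112 for Col14a1. The other 18 members were under 1 CPM per kb, down to 0.0491 ± 0.0331 for Col4a3.

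Type I collagen, the main fibrillar collagen of tendon and muscle sheaths, is built from the chains of Col1a1 (chr11:94936224-94953042, GRCm38.p6) and Col1a2 (chr6:4505618-4541543). Col1a1 stood at 187, 258, 215 and 239.8 CPM in the WT controls, at 14.1, 19, 48.9 and 87.5 after unloading and at 47.1, 33.4, 12.6 and 48.7 in diabetes. Across Notch2-mKO libraries, Col1a1 measured 159, 133, 122 and 250.1 CPM in the controls, 41.7, 38.9, 80.3 and 50.1 after unloading and 53.5, 36.8, 33.8 and 26.6 in diabetes. No treated library of Col1a1 reached the lowest control of its genotype. In WT, Col1a1 fell 5.32-fold after unloading (log2 fold change -2.41 ± 0.43, adjusted p = 0.000158) and 6.35-fold in diabetes (log2 fold change -2.67 ± 0.44, adjusted p = 8.26e-05). In Notch2-mKO, Col1a1 fell 3.15-fold after unloading (log2 fold change -1.65 ± 0.42, adjusted p = 0.0207) and 4.41-fold in diabetes (log2 fold change -2.14 ± 0.43, adjusted p = 0.00848). Col1a2 stood at 259, 363, 278 and 351 CPM in the WT controls, at 34.5, 40.6, 91.2 and 133 after unloading and at 93, 68.8, 26.7 and 93.8 in diabetes. Across Notch2-mKO libraries, Col1a2 measured 248, 234, 202 and 385 CPM in the controls, 82.5, 82.5, 150.0 and 90.1 after unloading and 100.3, 72.4, 65.9 and 59.4 in diabetes. For Col1a2, treated and control libraries of a genotype did not overlap, the treated being lower. In WT, Col1a2 fell 4.19-fold after unloading (log2 fold change -2.07 ± 0.36, adjusted p = 0.000125) and 4.44-fold in diabetes (log2 fold change -2.15 ± 0.37, adjusted p = 0.000113). In Notch2-mKO, Col1a2 fell 2.64-fold after unloading (log2 fold change -1.4 ± 0.36, adjusted p = 0.0206) and 3.58-fold in diabetes (log2 fold change -1.84 ± 0.36, adjusted p = 0.00705). The call for Col1a1 was lost in Notch2-mKO unloading without control library 4 or unloading libraries 1, 2 or 4. The call for Col1a2 was lost in Notch2-mKO unloading without control library 4 or unloading libraries 1, 2 or 4.

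Col3a1 (chr1:45311538-45349706), the chain of type III collagen, which forms thinner fibrils with type I in compliant tissue, ranked just below the type I chains per length. Col3a1 stood at 169.7, 216, 217 and 189.8 CPM in the WT controls, at 22, 23.8, 58.5 and 154 after unloading and at 54.3, 43.6, 12.7 and 68.4 in diabetes. Across Notch2-mKO libraries, Col3a1 measured 140.0, 110.1, 129 and 256 CPM in the controls, 78, 53.9, 127 and 52.6 after unloading and 79.2, 36.9, 38 and 28 in diabetes. WT unloading library 4 was the highest of its group, at 154 CPM against at most 58.5 in the other libraries. For Col3a1, all 4 treated libraries lay below all 4 controls in WT unloading, WT diabetes and Notch2-mKO diabetes, and the groups overlapped in Notch2-mKO unloading. In WT, Col3a1 fell 3.07-fold after unloading (log2 fold change -1.62 ± 0.5, adjusted p = 0.0138) and 4.42-fold in diabetes (log2 fold change -2.14 ± 0.51, adjusted p = 0.00217). In Notch2-mKO, Col3a1 fell 3.48-fold in diabetes (log2 fold change -1.8 ± 0.5, adjusted p = 0.0368), and after unloading the difference did not pass the test (log2 fold change -1.03 ± 0.49, adjusted p = 0.194). The call for Col3a1 was lost in WT unloading without unloading libraries 1 or 2 and in Notch2-mKO diabetes without control libraries 2, 3 or 4 or diabetes libraries 2, 3 or 4.

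Type V chains sit inside type I fibrils and set their diameter. Col5a1 stood at 43.9, 52.5, 56.8 and 50.8 CPM in the WT controls, at 7.7, 10.6, 15.4 and 33.3 after unloading and at 16.1, 12.5, 6.63 and 16 in diabetes. Across Notch2-mKO libraries, Col5a1 measured 35.5, 28.1, 33 and 59.9 CPM in the controls, 18.3, 16, 31.8 and 16.8 after unloading and 17.2, 14.2, 11.5 and 10.1 in diabetes. For Col5a1, all 4 treated libraries lay below all 4 controls in WT unloading, WT diabetes and Notch2-mKO diabetes, and the groups overlapped in Notch2-mKO unloading. Col5a2 stood at 14.4, 22.4, 18.4 and 18.8 CPM in the WT controls, at 4.35, 4.27, 8.52 and 12.6 after unloading and at 6.86, 4.94, 4.93 and 8.44 in diabetes. Across Notch2-mKO libraries, Col5a2 measured 13.3, 9.58, 12.2 and 21.9 CPM in the controls, 7.76, 5.87, 13.4 and 6.7 after unloading and 8.94, 6.8, 6.36 and 3.94 in diabetes. For Col5a2, all 4 treated libraries lay below all 4 controls in WT unloading, WT diabetes and Notch2-mKO diabetes, and the groups overlapped in Notch2-mKO unloading. Col5a2 lies next to Col3a1, at chr1:45374331-45503282. Col5a3 stood at 20.02, 27.7, 20.7 and 32.9 CPM in the WT controls, at 4.16, 4.79, 6.59 and 14.5 after unloading and at 5.65, 3.85, 3.41 and 3.76 in diabetes. Across Notch2-mKO libraries, Col5a3 measured 16.1, 10.1, 9.52 and 41.3 CPM in the controls, 9.95, 6.68, 10.5 and 6.94 after unloading and 5.79, 4.4, 2.59 and 2.29 in diabetes. For Col5a3, all 4 treated libraries lay below all 4 controls in WT unloading, WT diabetes and Notch2-mKO diabetes, and the groups overlapped in Notch2-mKO unloading. In WT, Col5a3 fell 3.38-fold after unloading (log2 fold change -1.76 ± 0.4, adjusted p = 0.00151) and 6.08-fold in diabetes (log2 fold change -2.6 ± 0.42, adjusted p = 6.35e-05). In Notch2-mKO, Col5a3 fell 5.09-fold in diabetes (log2 fold change -2.35 ± 0.42, adjusted p = 0.00446), and after unloading the difference did not pass the test (log2 fold change -1.18 ± 0.4, adjusted p = 0.0659). Col5a1 and Col5a2 fell by 1.61 and 1.32 on the log2 scale in WT unloading (adjusted p = 0.000767 and 0.00246), by 1.99 and 1.55 in WT diabetes (adjusted p = 0.000134 and 0.000718) and by 1.56 and 1.13 in Notch2-mKO diabetes (adjusted p = 0.0122 and 0.0401). In Notch2-mKO unloading neither passed the test, at -0.92 and -0.76 (adjusted p = 0.088 and 0.138). The call for Col5a1 was lost in Notch2-mKO diabetes without control library 4 or diabetes library 4. The call for Col5a2 was lost in Notch2-mKO diabetes without control libraries 3 or 4 or diabetes libraries 2, 3 or 4.

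Type XI chains, best known from cartilage, also nucleate fibrils in tendon, and they were rare here. Col11a1 stood at 0.84, 2.4, 1.47 and 3.37 CPM in the WT controls, at 0.17, 0.247, 0.502 and 0.76 after unloading and at 0.672, 0.428, 0.46 and 0.555 in diabetes. Across Notch2-mKO libraries, Col11a1 measured 2.17, 2.1, 1.26 and 2.33 CPM in the controls, 0.226, 0.522, 0.723 and 0.405 after unloading and 0.609, 0.404, 0.361 and 0.591 in diabetes. Every treated library of Col11a1 lay below every control library of its genotype. In WT, Col11a1 fell 4.88-fold after unloading (log2 fold change -2.29 ± 0.43, adjusted p = 0.000217) and 3.81-fold in diabetes (log2 fold change -1.93 ± 0.41, adjusted p = 0.000907). In Notch2-mKO, Col11a1 fell 4.18-fold after unloading (log2 fold change -2.06 ± 0.42, adjusted p = 0.00656) and 3.99-fold in diabetes (log2 fold change -2.0 ± 0.42, adjusted p = 0.00928). Col11a2 stood at 4.23, 4.3, 2.89 and 3.71 CPM in the WT controls, at 0.679, 1.42, 1.3 and 2.17 after unloading and at 1.99, 1.37, 0.383 and 3.2 in diabetes. Across Notch2-mKO libraries, Col11a2 measured 3.94, 4.81, 2.42 and 3.58 CPM in the controls, 1.4, 2.38, 2.15 and 1.15 after unloading and 0.892, 1.68, 1.35 and 1.33 in diabetes. For Col11a2, all 4 treated libraries lay below all 4 controls in WT unloading, Notch2-mKO unloading and Notch2-mKO diabetes, and the groups overlapped in WT diabetes. In WT, Col11a2 fell 2.74-fold after unloading (log2 fold change -1.45 ± 0.4, adjusted p = 0.00632) and 2.17-fold in diabetes (log2 fold change -1.12 ± 0.39, adjusted p = 0.0292). In Notch2-mKO, Col11a2 fell 2.81-fold in diabetes (log2 fold change -1.49 ± 0.4, adjusted p = 0.0318), and after unloading the difference did not pass the test (log2 fold change -1.07 ± 0.39, adjusted p = 0.0876). The call for Col11a2 was lost in WT diabetes without control libraries 1 or 2 or diabetes libraries 2 or 3 and in Notch2-mKO diabetes without control libraries 2 or 4 or diabetes libraries 1, 2, 3 or 4. Of the 3 chondrocyte markers listed, Matn1 was at 0 in every group, and the list summed to at most 0.783 CPM. Col24a1, a fibrillar chain of bone and cornea, was at the edge of detection. Col24a1 stood at 0.54, 0.854, 0.679 and 0.557 CPM in the WT controls, at 0.318, 0.103, 0.167 and 0.515 after unloading and at 0.232, 0.342, 0.153 and 0.572 in diabetes. Across Notch2-mKO libraries, Col24a1 measured 0.672, 0.328, 0.63 and 0.25 CPM in the controls, 0.113, 0.313, 0.181 and 0.344 after unloading and 0.305, 0.0202, 0.0902 and 0.0492 in diabetes. For Col24a1, all 4 treated libraries lay below all 4 controls in WT unloading, and the groups overlapped in WT diabetes, Notch2-mKO unloading and Notch2-mKO diabetes. None of its 4 differences passed the test (adjusted p from 0.056 to 0.298).

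**Figure D2:**
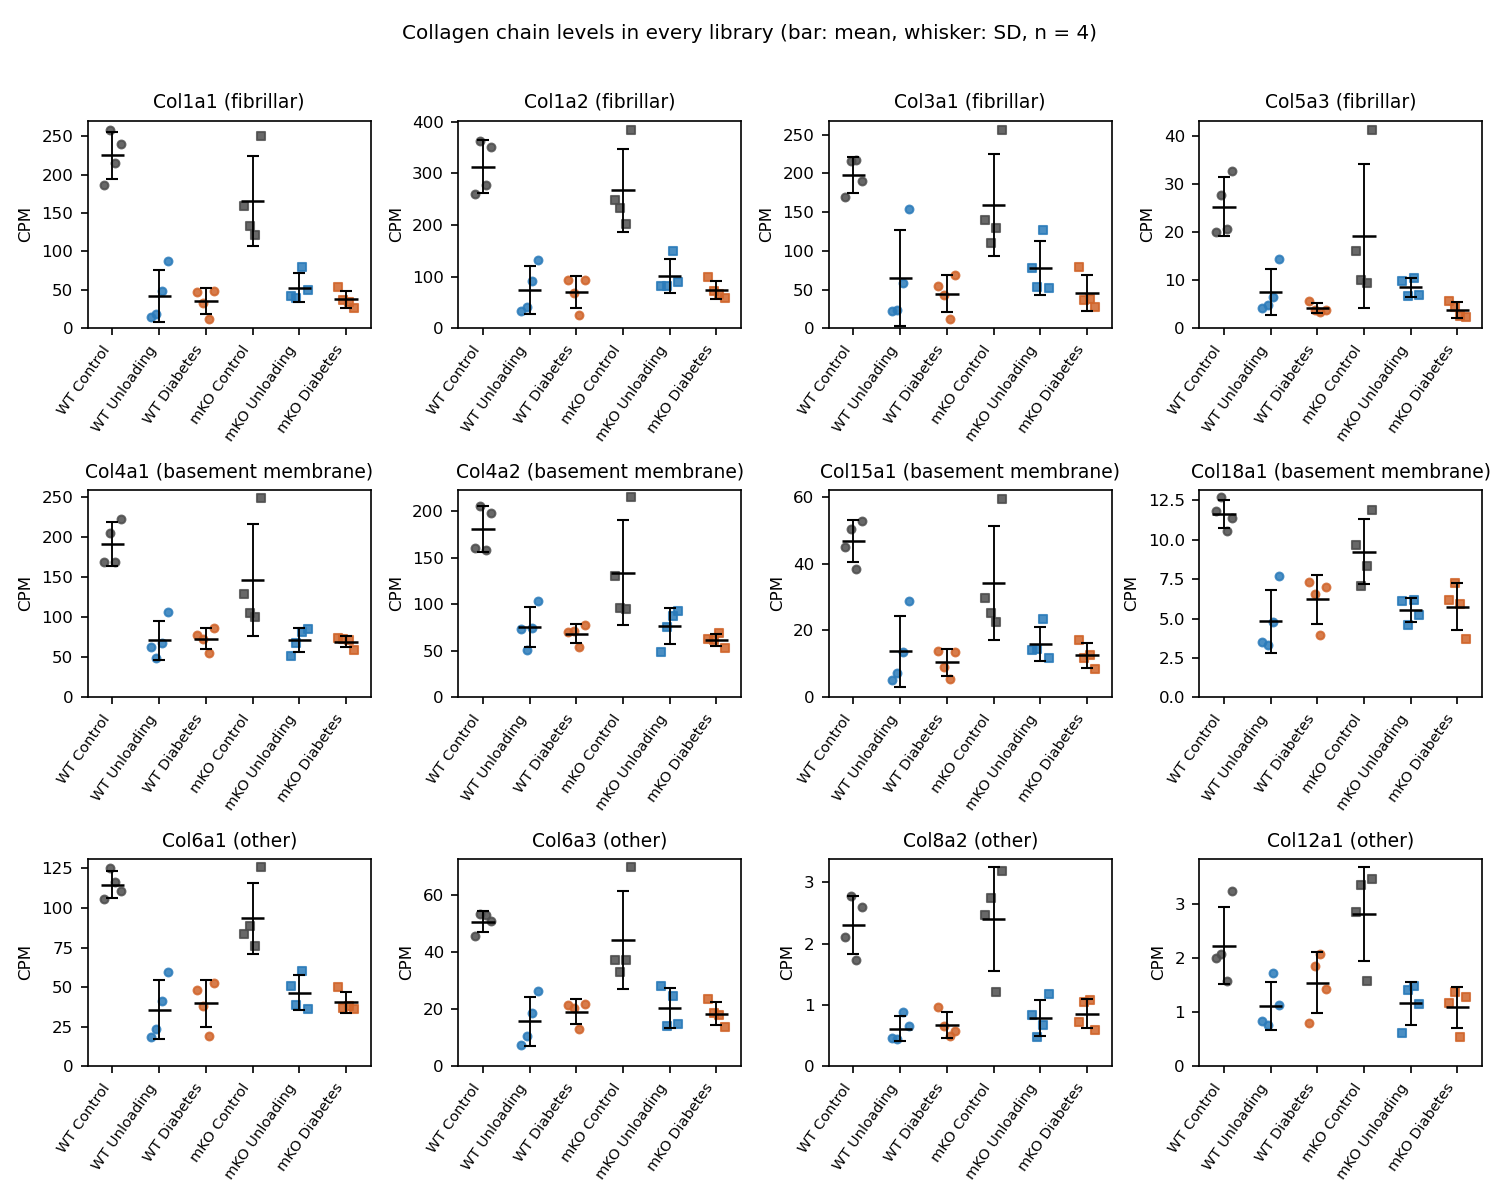
Levels in CPM (y axis, from 0) of 12 chains in each of the 24 libraries; circles are WT and squares are Notch2-mKO, with controls in grey, unloading in blue and diabetes in orange, the mean as a bar and the SD as a whisker (n = 4). Treated groups sit below the controls of their genotype in most panels, and in the Notch2-mKO controls library 4 is the highest point for most of the chains drawn.

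Col4a1 (chr8:11198423-11312889) and Col4a2 (chr8:11312805-11449287) make the ubiquitous type IV network of the basement membrane and are transcribed away from each other from 1 shared start region. Col4a1 stood at 169, 205, 168 and 223 CPM in the WT controls, at 62.4, 48.6, 68.2 and 106 after unloading and at 77.5, 73.2, 55.5 and 86.1 in diabetes. Across Notch2-mKO libraries, Col4a1 measured 129, 105, 100.3 and 249 CPM in the controls, 51.9, 68.1, 81.7 and 85.1 after unloading and 74, 72.7, 71.9 and 59.1 in diabetes. No treated library of Col4a1 reached the lowest control of its genotype. In WT, Col4a1 fell 2.68-fold after unloading (log2 fold change -1.42 ± 0.24, adjusted p = 8.4e-05) and 2.61-fold in diabetes (log2 fold change -1.39 ± 0.24, adjusted p = 0.000141). In Notch2-mKO, Col4a1 fell 2.03-fold after unloading (log2 fold change -1.02 ± 0.24, adjusted p = 0.013) and 2.1-fold in diabetes (log2 fold change -1.07 ± 0.24, adjusted p = 0.0143). Col4a2 stood at 160.1, 206, 158 and 198 CPM in the WT controls, at 73.7, 51.3, 74 and 103 after unloading and at 70.1, 71.3, 53.5 and 77.8 in diabetes. Across Notch2-mKO libraries, Col4a2 measured 130.4, 95.4, 94.9 and 215 CPM in the controls, 48.9, 76, 87 and 92.7 after unloading and 62.4, 61.6, 68.5 and 53.2 in diabetes. For Col4a2, treated and control libraries of a genotype did not overlap, the treated being lower. In WT, Col4a2 fell 2.39-fold after unloading (log2 fold change -1.26 ± 0.23, adjusted p = 0.000167) and 2.65-fold in diabetes (log2 fold change -1.41 ± 0.23, adjusted p = 7.49e-05). In Notch2-mKO, Col4a2 fell 1.76-fold after unloading (log2 fold change -0.81 ± 0.23, adjusted p = 0.0301) and 2.18-fold in diabetes (log2 fold change -1.12 ± 0.23, adjusted p = 0.00864). The call for Col4a1 was lost in Notch2-mKO unloading without control library 4 and in Notch2-mKO diabetes without control library 4 or diabetes library 4. The call for Col4a2 was lost in Notch2-mKO unloading without control library 4 or unloading libraries 1 or 2 and in Notch2-mKO diabetes without control library 4.

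Types XV and XVIII (multiplexins) bridge the basement membrane to nearby fibrils, and the end of the type XVIII chain is the source of endostatin. Col15a1 stood at 45.1, 50.3, 38.5 and 52.8 CPM in the WT controls, at 5.24, 7.42, 13.7 and 28.7 after unloading and at 13.9, 8.95, 5.58 and 13.7 in diabetes. Across Notch2-mKO libraries, Col15a1 measured 29.7, 25.1, 22.7 and 59.3 CPM in the controls, 14.1, 14.5, 23.3 and 11.7 after unloading and 17.2, 11.6, 12.8 and 8.49 in diabetes. For Col15a1, all 4 treated libraries lay below all 4 controls in WT unloading, WT diabetes and Notch2-mKO diabetes, and the groups overlapped in Notch2-mKO unloading. In WT, Col15a1 fell 3.41-fold after unloading (log2 fold change -1.77 ± 0.39, adjusted p = 0.00113) and 4.43-fold in diabetes (log2 fold change -2.15 ± 0.4, adjusted p = 0.000244). In Notch2-mKO, Col15a1 fell 2.73-fold in diabetes (log2 fold change -1.45 ± 0.39, adjusted p = 0.0323), and after unloading the difference did not pass the test (log2 fold change -1.11 ± 0.38, adjusted p = 0.0735). The call for Col15a1 was lost in Notch2-mKO diabetes without control library 4 or diabetes libraries 2, 3 or 4. Col18a1 stood at 11.9, 12.7, 10.6 and 11.4 CPM in the WT controls, at 3.52, 3.31, 4.77 and 7.68 after unloading and at 7.32, 6.57, 3.95 and 7.03 in diabetes. Across Notch2-mKO libraries, Col18a1 measured 9.64, 7.09, 8.31 and 11.9 CPM in the controls, 6.14, 4.57, 6.21 and 5.24 after unloading and 6.18, 7.23, 5.91 and 3.69 in diabetes. For Col18a1, all 4 treated libraries lay below all 4 controls in WT unloading, WT diabetes and Notch2-mKO unloading, and the groups overlapped in Notch2-mKO diabetes. In WT, Col18a1 fell 2.42-fold after unloading (log2 fold change -1.28 ± 0.24, adjusted p = 0.000213) and 1.87-fold in diabetes (log2 fold change -0.9 ± 0.23, adjusted p = 0.00429). In Notch2-mKO, Col18a1 passed the test neither after unloading (log2 fold change -0.74 ± 0.23, adjusted p = 0.0537) nor in diabetes (log2 fold change -0.68 ± 0.23, adjusted p = 0.0828). The Col18a1 difference in Notch2-mKO unloading was close to the threshold, and it passed with DESeq2 and with upper quartile scaling.

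The tissue-restricted type IV chains Col4a3, Col4a4 and Col4a5, which form the network of the kidney's filter, were rare. Col4a3 stood at 0.54, 0.522, 0 and 0.619 CPM in the WT controls, at 0.339, 0.411, 0.398 and 0.705 after unloading and at 0.116, 0.599, 0.307 and 0.59 in diabetes. Across Notch2-mKO libraries, Col4a3 measured 0.78, 0.35, 0.242 and 0.401 CPM in the controls, 0.271, 0.209, 0.632 and 0.0405 after unloading and 0.37, 0.222, 0.361 and 0.295 in diabetes. Treated and control libraries of Col4a3 overlapped in all 4 comparisons. Col4a3 was at 0 counts in WT control library 3, where 3 counts would be 0.0731 CPM without TMM factors. Col4a4 ranged from 0.66 to 1.14 CPM in the WT controls, from 0.461 to 0.754 after unloading and from 0.371 to 1.15 in diabetes. Col4a5 ranged from 1.11 to 2.04, 0.255 to 1.52 and 0.307 to 1.65 CPM in the same groups. None of these 3 chains passed the test in any treatment comparison, with adjusted p from 0.127 to 0.964.

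The type VI chains Col6a1 (chr10:76708792-76726044), Col6a2 (chr10:76595756-76623630) and Col6a3 assemble together into microfilaments, and their loss underlies congenital muscle disorders. Col6a1 stood at 106, 126, 117 and 111 CPM in the WT controls, at 18.8, 23.5, 41.3 and 59.4 after unloading and at 48.5, 38.4, 19.3 and 52.9 in diabetes. Across Notch2-mKO libraries, Col6a1 measured 83.7, 88.5, 75.8 and 126 CPM in the controls, 50.9, 38.8, 60.2 and 36.3 after unloading and 50.2, 36.9, 37.9 and 36.4 in diabetes. Every treated library of Col6a1 lay below every control library of its genotype. Col6a2 stood at 106, 120.4, 122 and 114 CPM in the WT controls, at 12.4, 18.2, 31 and 56 after unloading and at 41, 33.9, 14.8 and 39.8 in diabetes. Across Notch2-mKO libraries, Col6a2 measured 72.7, 80.04, 76.3 and 120.2 CPM in the controls, 47.1, 35.2, 56.5 and 28.6 after unloading and 42.9, 29.9, 30.9 and 26.1 in diabetes. No treated library of Col6a2 reached the lowest control of its genotype. Col6a3 stood at 45.6, 53.4, 52.9 and 50.7 CPM in the WT controls, at 7.49, 10.6, 18.5 and 26.2 after unloading and at 21.5, 20.4, 12.9 and 21.8 in diabetes. Across Notch2-mKO libraries, Col6a3 measured 37, 33.1, 37.2 and 69.6 CPM in the controls, 28.1, 14.3, 24.8 and 14.9 after unloading and 23.5, 18.7, 18 and 13.6 in diabetes. For Col6a3, treated and control libraries of a genotype did not overlap, the treated being lower. The 3 chains fell together in every treatment comparison. After WT unloading their log2 fold changes were -1.68 ± 0.29, -1.98 ± 0.34 and -1.69 ± 0.3 (adjusted p = 8.71e-05, 8.65e-05 and 0.000137). In WT diabetes they were -1.53 ± 0.29, -1.84 ± 0.34 and -1.4 ± 0.3 (adjusted p = 0.000271, 0.000216 and 0.000889). In Notch2-mKO unloading they were -1.0 ± 0.28, -1.06 ± 0.33 and -1.11 ± 0.3 (adjusted p = 0.0317, 0.0485 and 0.0262). In Notch2-mKO diabetes they were -1.21 ± 0.28, -1.43 ± 0.33 and -1.26 ± 0.3 (adjusted p = 0.0166, 0.0163 and 0.0175). The call for Col6a1 was lost in Notch2-mKO unloading without control libraries 2 or 4 or unloading libraries 1, 2 or 4 and in Notch2-mKO diabetes without control library 4 or diabetes libraries 2 or 4. The call for Col6a2 was lost in Notch2-mKO unloading without control libraries 2, 3 or 4 or unloading libraries 1, 2 or 4 and in Notch2-mKO diabetes without control library 4 or diabetes libraries 2 or 4. The call for Col6a3 was lost in Notch2-mKO unloading without control library 4 or unloading libraries 2 or 4 and in Notch2-mKO diabetes without control library 4 or diabetes library 4.

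Col6a6, which encodes a later-found type VI chain, moved less evenly. It ranged from 3.03 to 5.34 CPM in the WT controls, 0.891 to 2.93 after unloading and 1.69 to 4.38 in diabetes, and from 3.49 to 5.51, 1.19 to 3.0 and 2.16 to 4.18 CPM in the Notch2-mKO groups. In WT, Col6a6 passed the test neither after unloading (log2 fold change -0.82 ± 0.33, adjusted p = 0.0529) nor in diabetes (log2 fold change -0.23 ± 0.32, adjusted p = 0.61). In Notch2-mKO, Col6a6 fell 2.07-fold after unloading (log2 fold change -1.05 ± 0.33, adjusted p = 0.0485), and in diabetes the difference did not pass the test (log2 fold change -0.48 ± 0.32, adjusted p = 0.395). The call for Col6a6 was lost in Notch2-mKO unloading without control libraries 1, 2, 3 or 4 or unloading libraries 2, 3 or 4.

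Among the fibril-associated chains, Col12a1 and Col14a1 coat fibrils in tendon and muscle sheaths, and Col22a1 marks the junction of muscle with tendon. Col12a1 stood at 2.01, 2.09, 1.58 and 3.25 CPM in the WT controls, at 0.849, 0.76, 1.74 and 1.14 after unloading and at 0.811, 1.86, 2.09 and 1.43 in diabetes. Across Notch2-mKO libraries, Col12a1 measured 2.86, 3.37, 1.57 and 3.48 CPM in the controls, 0.609, 1.41, 1.49 and 1.15 after unloading and 1.17, 1.37, 0.541 and 1.28 in diabetes. For Col12a1, all 4 treated libraries lay below all 4 controls in Notch2-mKO unloading and Notch2-mKO diabetes, and the groups overlapped in WT unloading and WT diabetes. In WT, Col12a1 fell 1.99-fold after unloading (log2 fold change -0.99 ± 0.35, adjusted p = 0.0305), and in diabetes the difference did not pass the test (log2 fold change -0.52 ± 0.34, adjusted p = 0.253). In Notch2-mKO, Col12a1 fell 2.42-fold after unloading (log2 fold change -1.28 ± 0.35, adjusted p = 0.0271) and 2.58-fold in diabetes (log2 fold change -1.37 ± 0.35, adjusted p = 0.0252). Col14a1 stood at 10.6, 11.4, 9.73 and 10.1 CPM in the WT controls, at 3.88, 4.09, 8.58 and 9.14 after unloading and at 8.71, 8.15, 6.15 and 14.7 in diabetes. Across Notch2-mKO libraries, Col14a1 measured 9.75, 9.51, 7.27 and 9.87 CPM in the controls, 7.2, 5.98, 9.48 and 5.97 after unloading and 10.3, 7.75, 6.74 and 7.78 in diabetes. For Col14a1, all 4 treated libraries lay below all 4 controls in WT unloading, and the groups overlapped in WT diabetes, Notch2-mKO unloading and Notch2-mKO diabetes. In WT, Col14a1 fell 1.64-fold after unloading (log2 fold change -0.71 ± 0.25, adjusted p = 0.0322), and in diabetes the difference did not pass the test (log2 fold change -0.15 ± 0.25, adjusted p = 0.682). In Notch2-mKO, Col14a1 passed the test neither after unloading (log2 fold change -0.35 ± 0.25, adjusted p = 0.419) nor in diabetes (log2 fold change -0.16 ± 0.25, adjusted p = 0.755). Col22a1 stood at 20.9, 24.6, 21.8 and 22.6 CPM in the WT controls, at 10.5, 15.3, 13.9 and 16.5 after unloading and at 18, 15.5, 7.34 and 22 in diabetes. Across Notch2-mKO libraries, Col22a1 measured 22.1, 19.6, 22.2 and 21.9 CPM in the controls, 7.65, 17.4, 16.1 and 12.5 after unloading and 15.1, 14.5, 10.9 and 14.7 in diabetes. For Col22a1, all 4 treated libraries lay below all 4 controls in WT unloading, Notch2-mKO unloading and Notch2-mKO diabetes, and the groups overlapped in WT diabetes. In WT, Col22a1 fell 1.6-fold after unloading (log2 fold change -0.68 ± 0.23, adjusted p = 0.0263), and in diabetes the difference did not pass the test (log2 fold change -0.52 ± 0.23, adjusted p = 0.0904). In Notch2-mKO, Col22a1 passed the test neither after unloading (log2 fold change -0.68 ± 0.23, adjusted p = 0.0704) nor in diabetes (log2 fold change -0.64 ± 0.23, adjusted p = 0.105). The call for Col12a1 was lost in WT unloading without control library 4 or unloading libraries 1, 2 or 4, in Notch2-mKO unloading without control libraries 2 or 4 or unloading libraries 1 or 4 and in Notch2-mKO diabetes without control libraries 2 or 4 or diabetes libraries 1, 3 or 4. The call for Col14a1 was lost in WT unloading without control libraries 1 or 2 or unloading libraries 1 or 2. The call for Col22a1 was lost in WT unloading without control library 2 or unloading libraries 1 or 3.

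Col16a1 encodes a fibril-associated chain found near many kinds of matrix. Col16a1 stood at 2.67, 4.22, 3.23 and 3.87 CPM in the WT controls, at 0.912, 0.822, 1.44 and 1.63 after unloading and at 2.62, 2.46, 1.4 and 2.16 in diabetes. Across Notch2-mKO libraries, Col16a1 measured 4.09, 3.08, 2.25 and 3.23 CPM in the controls, 1.2, 1.28, 1.54 and 1.4 after unloading and 1.76, 1.92, 1.1 and 1.5 in diabetes. Every treated library of Col16a1 lay below every control library of its genotype. In WT, Col16a1 fell 2.93-fold after unloading (log2 fold change -1.55 ± 0.25, adjusted p = 5.03e-05) and 1.62-fold in diabetes (log2 fold change -0.7 ± 0.24, adjusted p = 0.0273). In Notch2-mKO, Col16a1 fell 2.34-fold after unloading (log2 fold change -1.23 ± 0.25, adjusted p = 0.00656) and 2.01-fold in diabetes (log2 fold change -1.01 ± 0.24, adjusted p = 0.0202). The call for Col16a1 was lost in WT diabetes without control libraries 2 or 4 or diabetes library 3 and in Notch2-mKO diabetes without control library 4 or diabetes libraries 3 or 4. Col20a1 was called in WT diabetes (log2 fold change -1.03 ± 0.27, adjusted p = 0.00479), from 1.36 to 2.94 CPM in the controls to 0.788 to 1.02. Its other 3 differences did not pass (adjusted p = 0.0759, 0.328 and 0.255). Col19a1 stood at 0.09, 0.451, 0.934 and 0.402 CPM in the WT controls, at 0.658, 0.637, 0.398 and 0.868 after unloading and at 0.162, 0.214, 0.46 and 0.716 in diabetes. Across Notch2-mKO libraries, Col19a1 measured 0.672, 0.175, 0.194 and 0.451 CPM in the controls, 0.542, 0.574, 0.429 and 0.546 after unloading and 0.218, 0.606, 0.564 and 0.443 in diabetes. Treated and control libraries of Col19a1 overlapped in all 4 comparisons. Col19a1 passed no treatment test (adjusted p from 0.553 to 0.797), and neither did Col9a1, which stood at 0.905 to 1.35 CPM in the WT controls.

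The 2 short chains of type VIII, known from vessels and the cornea, are given together. Col8a2 stood at 2.1, 2.78, 1.73 and 2.6 CPM in the WT controls, at 0.467, 0.452, 0.879 and 0.651 after unloading and at 0.973, 0.663, 0.498 and 0.572 in diabetes. Across Notch2-mKO libraries, Col8a2 measured 2.47, 2.73, 1.21 and 3.18 CPM in the controls, 0.835, 0.47, 0.677 and 1.17 after unloading and 0.718, 1.05, 1.08 and 0.591 in diabetes. No treated library of Col8a2 reached the lowest control of its genotype. In WT, Col8a2 fell 3.75-fold after unloading (log2 fold change -1.91 ± 0.33, adjusted p = 9.23e-05) and 3.41-fold in diabetes (log2 fold change -1.77 ± 0.32, adjusted p = 0.000214). In Notch2-mKO, Col8a2 fell 3.01-fold after unloading (log2 fold change -1.59 ± 0.32, adjusted p = 0.00644) and 2.78-fold in diabetes (log2 fold change -1.47 ± 0.32, adjusted p = 0.0112). The call for Col8a2 was lost in Notch2-mKO diabetes without control library 4. Col8a1 ranged from 0.96 to 1.53 CPM in the WT controls, 0.764 to 1.44 after unloading and 0.942 to 2.47 in diabetes. Its log2 fold changes of -0.28, 0.24, -0.79 and -0.19, in the order of the counts above, did not pass (adjusted p = 0.584, 0.632, 0.174 and 0.802). The difference between the 2 chains was not tested.

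Col13a1 encodes a transmembrane collagen of the neuromuscular junction. Col13a1 stood at 0.3, 1.02, 0.764 and 0.495 CPM in the WT controls, at 0.361, 0.575, 0.419 and 0.434 after unloading and at 0.324, 0.278, 0.383 and 0.268 in diabetes. Across Notch2-mKO libraries, Col13a1 measured 0.78, 0.437, 0.533 and 0.926 CPM in the controls, 0.271, 0.157, 0.203 and 0.344 after unloading and 0.457, 0.162, 0.564 and 0.443 in diabetes. For Col13a1, all 4 treated libraries lay below all 4 controls in Notch2-mKO unloading, and the groups overlapped in WT unloading, WT diabetes and Notch2-mKO diabetes. In WT, Col13a1 fell 2.06-fold in diabetes (log2 fold change -1.05 ± 0.4, adjusted p = 0.0486), and after unloading the difference did not pass the test (log2 fold change -0.54 ± 0.4, adjusted p = 0.311). In Notch2-mKO, Col13a1 fell 2.7-fold after unloading (log2 fold change -1.43 ± 0.41, adjusted p = 0.0358), and in diabetes the difference did not pass the test (log2 fold change -0.72 ± 0.4, adjusted p = 0.293). The call for Col13a1 was lost in WT diabetes without control libraries 2 or 3 or diabetes libraries 1, 2, 3 or 4 and in Notch2-mKO unloading without control libraries 1, 3 or 4 or unloading libraries 1, 2 or 3. Col7a1 stood at 1.68, 1.4, 1.61 and 0.711 CPM in the WT controls, at 1.1, 0.863, 0.837 and 0.949 after unloading and at 0.556, 0.92, 1.19 and 0.877 in diabetes. Across Notch2-mKO libraries, Col7a1 measured 1.34, 1.09, 1.28 and 0.926 CPM in the controls, 0.97, 1.36, 1.6 and 2.57 after unloading and 1.0, 0.909, 0.789 and 1.11 in diabetes. Treated and control libraries of Col7a1 overlapped in all 4 comparisons. Col7a1, the anchoring fibril chain, passed no treatment test (adjusted p from 0.115 to 0.601). Col28a1 stood at 0.24, 0.522, 0.679 and 0.835 CPM in the WT controls, at 0.573, 0.37, 0.754 and 1.19 after unloading and at 0.51, 0.706, 0.882 and 1.0 in diabetes. Across Notch2-mKO libraries, Col28a1 measured 0.758, 0.0437, 0.291 and 0.25 CPM in the controls, 0.18, 0.313, 0.248 and 0.465 after unloading and 0.674, 0.929, 1.01 and 0.492 in diabetes. Treated and control libraries of Col28a1 overlapped in all 4 comparisons. Col28a1, a chain of peripheral nerve, had the highest fold change of the members, log2 fold change 1.2 ± 0.51, adjusted p = 0.162 in Notch2-mKO diabetes, and was not called. Without Notch2-mKO control library 1 it was called higher, at a log2 fold change of 2.01. Col23a1, another transmembrane chain, lay at 0.45 to 1.61 CPM in the WT controls and passed no test (adjusted p from 0.463 to 0.989).

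Summed over the 33 members, collagen made up 1604 ± 176 CPM in the WT controls (SD, n = 4), 496 ± 269 after unloading and 468 ± 148 in diabetes. In Notch2-mKO the sums were 1272 ± 447, 585 ± 142 and 461 ± 90.3 CPM. The sums ran from 1394 to 1784 in the WT controls against 298 to 868 and 262 to 599.9 CPM in the treated groups, and from 973 to 1930.5 in the Notch2-mKO controls against 495 to 796 and 370.4 to 586 CPM, with no overlap in either genotype. These sums describe the chosen members and carry no test. The 5 most abundant chains held 68.9 ± 1.39% of the sum in the WT controls.

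Fibrillar chains were 52.1 ± 1.32% of the collagen sum in the WT controls, 39.9 ± 9.36% after unloading and 36.1 ± 7.12% in diabetes, and 52.7 ± 0.278%, 45.7 ± 4.85% and 39.1 ± 4.46% in the Notch2-mKO groups. Diabetic libraries lay wholly below the controls in both genotypes, at 25.9 to 41.4% against 50.2 to 53% in WT and at 35.7 to 45.5% against 52.3 to 52.9% in Notch2-mKO. Unloaded libraries reached 50.5% in WT and 52.2% in Notch2-mKO. Basement membrane chains took 27 ± 1.71%, 36.6 ± 9.13% and 35.8 ± 6.92% in the WT groups and 25.1 ± 2.26%, 29.8 ± 6.32% and 33.3 ± 3.87% in the Notch2-mKO groups. The other chains took 20.9 ± 1.45%, 23.5 ± 3.01% and 28.1 ± 0.406% in WT and 22.3 ± 2.47%, 24.4 ± 3.8% and 27.7 ± 1.64% in Notch2-mKO. The shares are descriptions and were not tested.

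**Figure D3:**
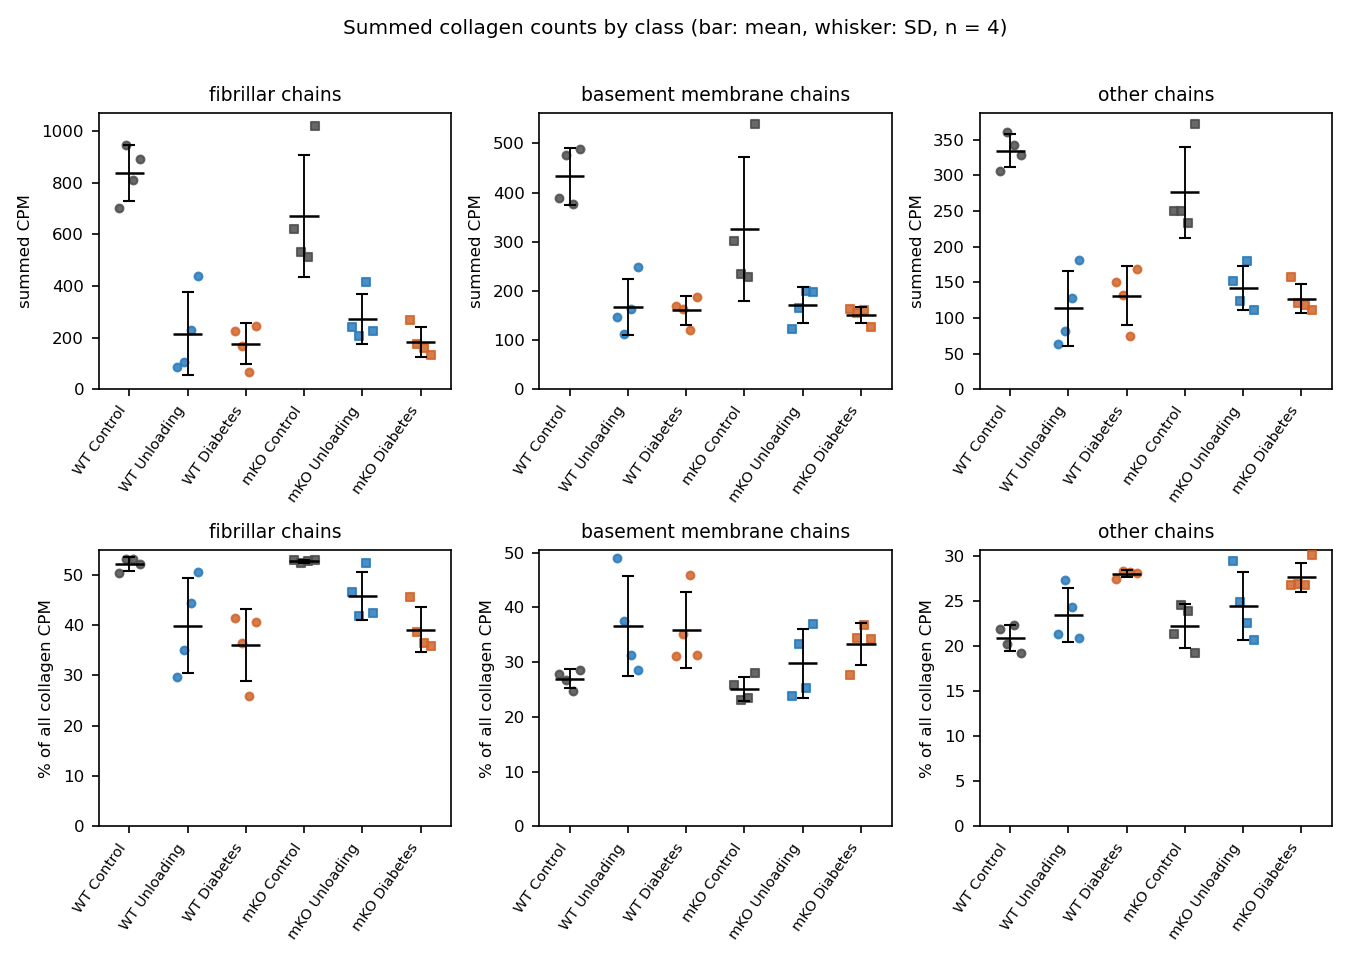
Summed CPM (upper row) and percent of all collagen CPM (lower row) of fibrillar, basement membrane and other chains in every library, with mean and SD (n = 4), for the 6 groups on the x axis. The fibrillar sum is 837 ± 107 CPM in the WT controls and 177 ± 79.1 in WT diabetes, while the fibrillar share runs from 52.1 ± 1.32% to 36.1 ± 7.12%.

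Chains that assemble into 1 molecule were compared as ratios of CPM per kb within each library, with exact permutation tests over the libraries (two-sided, 12 tests, Benjamini-Hochberg adjusted; the smallest p that 4 against 4 allows is 0.0286). The ratio Col1a1/Col1a2 was 0.651, 0.641, 0.696 and 0.615 in the WT controls, 0.369, 0.422, 0.484 and 0.594 after unloading and 0.457, 0.438, 0.426 and 0.468 in diabetes. For Notch2-mKO it was 0.58, 0.512, 0.544 and 0.587, 0.456, 0.425, 0.483 and 0.502 and 0.481, 0.458, 0.462 and 0.403 in the same order. It was lower in all 4 treated libraries than in all 4 controls in each of the 4 comparisons (exact p = 0.0286, adjusted p = 0.049 in each). Col6a1/Col6a2 was 1.19, 1.25, 1.14 and 1.16 in the WT controls, 1.81, 1.55, 1.6 and 1.27 after unloading and 1.42, 1.36, 1.56 and 1.59 in diabetes. Notch2-mKO libraries gave 1.38, 1.32, 1.19 and 1.25 in the controls, 1.3, 1.32, 1.28 and 1.52 after unloading and 1.4, 1.48, 1.47 and 1.67 in diabetes. The Col6a1/Col6a2 ratio was higher in WT unloading, WT diabetes and Notch2-mKO diabetes (exact p = 0.0286, adjusted p = 0.049 in each) and did not pass in Notch2-mKO unloading (exact p = 0.429, adjusted p = 0.468). Col4a1/Col4a2 passed in none of the 4 comparisons, with adjusted p from 0.0857 to 0.714. With the trends of base composition and length taken out of each library, the exact p of the Col1a1/Col1a2 and Col6a1/Col6a2 ratios were the same. That of Col4a1/Col4a2 in WT unloading went from 0.0571 to 0.0286, both before adjustment over the 12 tests. A ratio shows that the 2 chains changed unequally and does not show which of them moved.

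**Figure D4:**
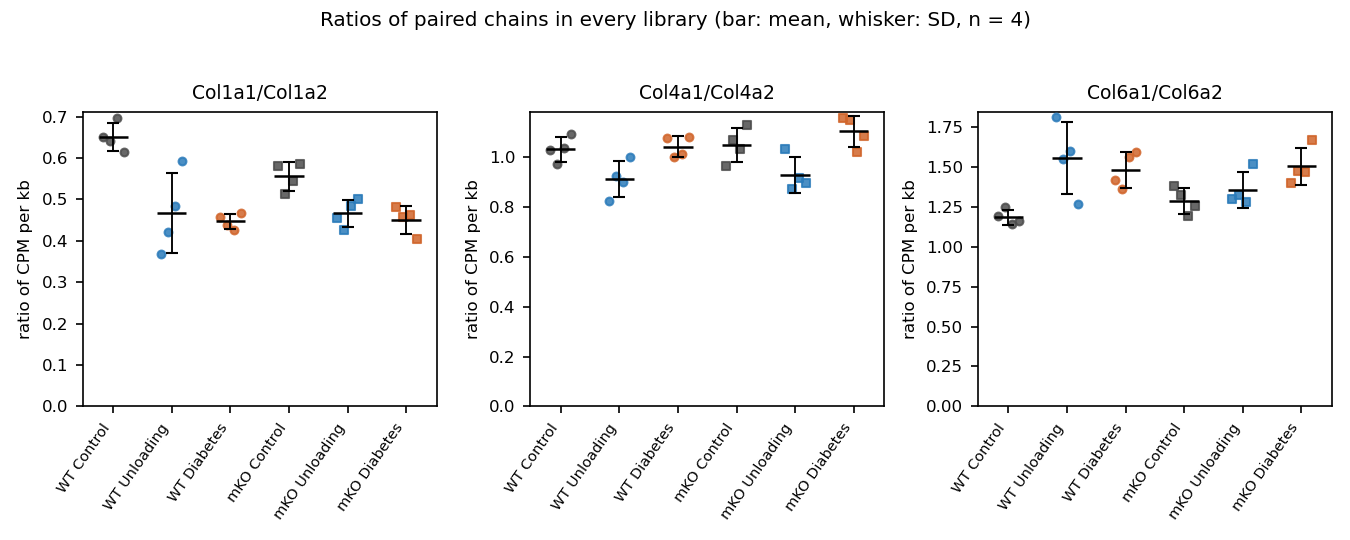
Ratio of CPM per kb (y axis, from 0) of paired chains in every library of the 6 groups, with mean and SD (n = 4). Col1a1/Col1a2 sits at 0.651 in the WT controls and at 0.467 and 0.447 after unloading and in diabetes, and Col4a1/Col4a2 has group means from 0.913 to 1.1.

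Between genotypes, no member was called in the controls, after unloading or in diabetes, and no gene of the 13048 was (0.0% in each). In the controls, 25 of 33 members were lower in Notch2-mKO (48.4% of all genes were), with a median log2 fold change of -0.22, and 0 members were under an unadjusted p of 0.05 (5.33% of all genes). The fibrillar chains ran from -0.48 to -0.035, all 9 below 0, and 8 of 9 in the adjusted fit. For Col1a1 the difference was -0.44 with a 95% interval from -1.29 to 0.41 (adjusted p = 0.933), and for Col4a2, the basement membrane chain with the smallest p, it was -0.43, from -0.89 to 0.031 (adjusted p = 0.893). After unloading 2 members were under an unadjusted p of 0.05 (10.3% of all genes): Col7a1, higher in Notch2-mKO (log2 fold change 0.8 ± 0.29, adjusted p = 0.423), and Col28a1 (log2 fold change -1.23 ± 0.52, adjusted p = 0.445). In diabetes there was 1 (5.3% of all genes), Col24a1 (log2 fold change -1.47 ± 0.62, adjusted p = 0.872). The intervals are wide, so a p above the threshold does not show that the genotypes were alike.

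The difference between the genotypes in their response was tested as an interaction. No member passed for unloading or for diabetes (0.0% of all genes in both), and unadjusted p under 0.05 were found for 1 member (14.4% of all genes) and for 0 (8.75%). The estimates for unloading were above 0 for 23 of 33 members, against 51.9% of all genes, with a median of 0.32. A value above 0 is a smaller fall in Notch2-mKO only where the fold change was below 0 in both genotypes. That held for all 9 fibrillar chains but not for every member. The unloading estimates were above 0 for all 9 fibrillar chains, from 0.22 to 0.76, and above 0 in the adjusted fit too. Each such estimate contains the genotype difference in the controls, given above, with its sign reversed. The lower fibrillar levels in the Notch2-mKO controls and these estimates are therefore not independent results. For Col1a1 the difference in the unloading response was 0.76 (95% interval -0.45 to 1.96, adjusted p = 0.599) and for Col1a2 it was 0.67 (-0.35 to 1.69, adjusted p = 0.579). Col6a2 gave 0.92 (-0.032 to 1.87, adjusted p = 0.369), and Col7a1, the member under an unadjusted 0.05, gave 1.01 (0.17 to 1.86, adjusted p = 0.258). For diabetes, 20 of 33 estimates were above 0 (48.9% of all genes), with a median of 0.26. Col1a1 gave 0.53 (-0.68 to 1.73, adjusted p = 0.835) and Col12a1 gave -0.84 (-1.85 to 0.16, adjusted p = 0.64). The larger number of calls in WT than in Notch2-mKO is thus not shown to be a difference between the genotypes.

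**Figure D5:**
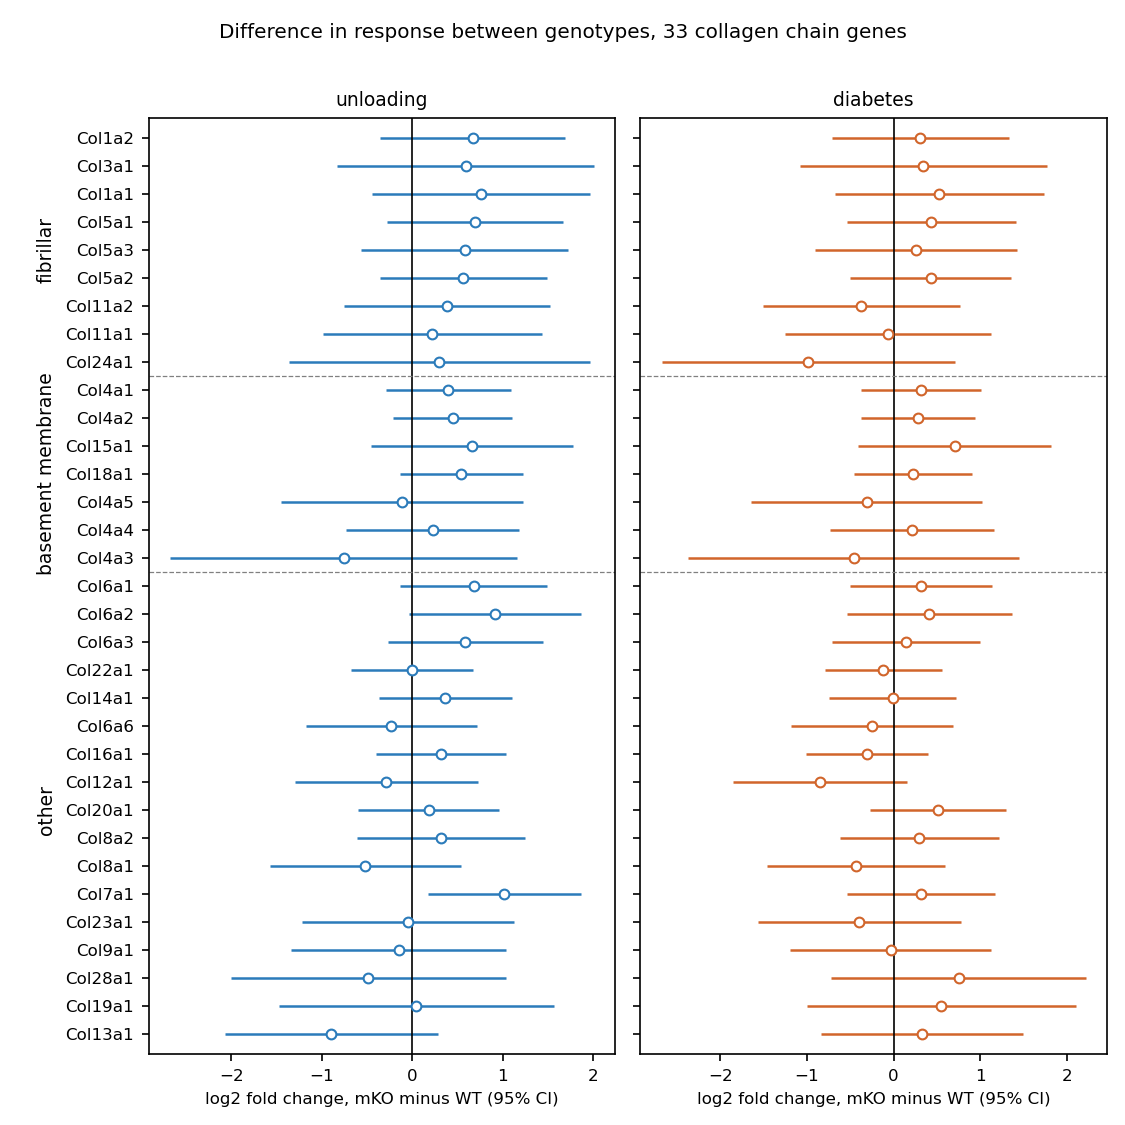
Difference in log2 fold change, Notch2-mKO minus WT (x axis), with its 95% confidence interval for each of the 33 chains, for unloading and diabetes. All open points failed the test; the 9 fibrillar estimates for unloading lie to the right of 0, and their intervals all include 0.

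Unloading and diabetes were set against each other within a genotype, a comparison added after the data were seen. No member was called in WT (3.56% of all genes) or in Notch2-mKO (3.07%), and 3 members in each were under an unadjusted p of 0.05 (16.6% and 15.5% of all genes). Col16a1 differed between WT diabetes and WT unloading by 0.85 ± 0.25 (log2, adjusted p = 0.0568), and it passed without WT unloading library 4, without WT diabetes library 3 and with DESeq2. Col5a3 differed in diabetes by -0.85 ± 0.41 in WT (adjusted p = 0.294) and by -1.17 ± 0.41 in Notch2-mKO (adjusted p = 0.132), values that did not pass. In Notch2-mKO the other chains under an unadjusted p of 0.05 were Col7a1 (log2 fold change -0.78 ± 0.29, adjusted p = 0.166) and Col28a1 (log2 fold change 1.35 ± 0.52, adjusted p = 0.176). In Notch2-mKO, Col28a1 and Col8a1 (log2 fold change 0.6 ± 0.37, adjusted p = 0.457) were higher in all 4 diabetic than in all 4 unloaded libraries. Col5a3 was lower in all 4 diabetic than in all 4 unloaded libraries there. None of these chains passed the test, and the share of all genes separated in this way is not given.

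Collagen chains are modified, folded, secreted, trimmed and crosslinked by a shared set of proteins, and 45 of 48 genes listed for these steps and for collagen breakdown were tested. In WT, 24 fell and 4 rose after unloading (16.3% and 18.4% of all genes), and 17 fell and 5 rose in diabetes (15.5% and 17.8%). In the reported fit, falls in WT were thus above the share over all genes and rises below it. In Notch2-mKO, 4 fell and 0 rose after unloading (3.2% and 4.11% of all genes), and 5 fell and 4 rose in diabetes (2.54% and 3.05%). In Notch2-mKO diabetes, rises as well as falls were thus above the share over all genes. The adjusted fit for base composition gave 19 falls and 5 rises, 11 and 8, 4 and 0, and 4 and 2, in that order, to be read against the shares of that fit given above. There the rises in WT diabetes, 8 of 45, were above the share over all genes of 12.8%. Serpinh1, the collagen-specific chaperone of the endoplasmic reticulum, fell in all 4 comparisons (-1.67 ± 0.19, adjusted p = 1.68e-06; -1.47 ± 0.19, adjusted p = 7.95e-06; -0.91 ± 0.19, adjusted p = 0.00662; and -0.93 ± 0.19, adjusted p = 0.00807, as log2 fold change ± SE in the order of the counts above). P4ha2, a subunit of the prolyl hydroxylase that stabilises the helix, also fell in all 4, at -0.9, -0.79, -0.57 and -0.52 (adjusted p = 4.52e-05, 0.000207, 0.0188 and 0.0359). Pcolce, which enhances trimming of fibrillar procollagen, fell in WT by 1.37 and 1.15 on the log2 scale (adjusted p = 5.93e-05 and 0.000392). Of the crosslinking enzymes, Loxl1 fell by 0.49 and 1.01 (adjusted p = 0.0288 and 0.000118), and Lox rose by 1.02 and 1.54 (adjusted p = 0.00464 and 0.000142). Ctage5 and Sec23a, of the machinery that loads large cargo such as procollagen into transport vesicles, rose in WT by 1.0 and 0.42 after unloading and by 0.76 and 0.63 in diabetes (adjusted p = 1.62e-05, 0.000466, 0.000351 and 1.37e-05). In the adjusted fit Sec23a passed in neither WT comparison (adjusted p = 0.613 and 0.0897), Loxl1 fell only in diabetes of the 2 WT comparisons (adjusted p = 0.576 and 0.0016), and Ctage5 and Lox stayed called in both. Timp3, an inhibitor of matrix proteases, rose in diabetes, by 0.86 in WT and 0.49 in Notch2-mKO (adjusted p = 7.86e-05 and 0.04), the second of which was 0.0577 in the adjusted fit.

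Transforming growth factor beta is the main inducer of collagen transcription in fibroblasts, and all 8 genes listed for that pathway were tested (Ccn2 under its older symbol Ctgf). In WT, Tgfb1, Tgfb3 and Smad3 fell and Tgfb2 and Tgfbr1 rose, after unloading and in diabetes alike. Tgfb1, the ligand, fell by 0.83 and 0.82 (adjusted p = 3.06e-05 and 5.19e-05), and Tgfbr1, its receptor, rose by 1.3 and 1.33 (adjusted p = 0.000332 and 0.000296). In Notch2-mKO none passed after unloading, and Tgfb1 and Smad3 fell in diabetes (adjusted p = 0.0239 and 0.0471), at 0.054 and 0.0812 in the adjusted fit. Tgfb3 in WT diabetes did not pass in that fit either (adjusted p = 0.239). Smad2 was called lower there in WT unloading and WT diabetes, at log2 fold changes of -0.33 and -0.52 (adjusted p = 0.0319 and 0.00174). The Tgfbr1 rises in WT were smaller in that fit, at 0.72 and 0.74, and stayed called (adjusted p = 0.00757 and 0.00663). Ctgf, a target of the pathway, passed in none of the 4. Of the 6 collagen receptor genes tested, 1 rose and 1 fell in each WT comparison, which is near the share over all genes, and 0 passed in Notch2-mKO. Itgb1, the shared beta subunit of the collagen-binding integrins, rose by 0.4 and 0.4 in WT (adjusted p = 0.00281 and 0.00345), and passed in neither in the adjusted fit (adjusted p = 0.274 and 0.236). In that fit Itga1 and Itga11 were lower in WT unloading, at -0.46 and -0.58 (adjusted p = 0.0432 and 0.0163). Itga1 was also lower in Notch2-mKO unloading, at -0.63 (adjusted p = 0.0244), and no receptor gene passed in diabetes.

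Most of the listed markers of tendon cells fell along with the collagen chains. Of 8 tenocyte markers, 6, 6, 5 and 6 fell and 0 rose in the 4 treatment comparisons (16.3%, 15.5%, 3.2% and 2.54% of all genes fell), and their summed level was 282 to 323 CPM in the WT controls, 67.2 to 139 after unloading and 86.5 to 144 in diabetes. In Notch2-mKO the sums were 265 to 366, 75.4 to 138 and 96.7 to 124 CPM. Tnmd, a membrane protein of tendon cells, fell by 1.96, 2.55, 1.53 and 2.05 on the log2 scale (adjusted p = 0.000307, 3.79e-05, 0.0154 and 0.00505). Scx, the transcription factor that defines the lineage, passed in none (adjusted p from 0.151 to 0.968). Its log2 fold changes were 0.019, -0.38, 0.67 and -0.33, so it did not fall in either unloading comparison. Mkx, also on the list, passed in none (adjusted p from 0.38 to 0.897), and no marker of the list was at 0 in a group. Of 12 fibroblast markers, 4 fell and 1 rose in WT unloading, 2 fell and 3 rose in WT diabetes, and 1 fell and 0 rose in each Notch2-mKO comparison. In WT diabetes the counts are near the shares over all genes (15.5% fell and 17.8% rose). In WT unloading those shares were 16.3% and 18.4%. Their summed level was 804 to 1224 CPM in the WT controls, 1029.8 to 1429 after unloading and 1226 to 1709 in diabetes, so that unloading overlapped the controls and diabetes lay just above them. In Notch2-mKO the sums were 878 to 1307, 796 to 1289.5 and 1192 to 1578 CPM, and the groups overlapped. Pdgfra, the receptor that defines muscle fibroblast progenitors, passed in none (adjusted p from 0.0588 to 0.882). Of the 8 endothelial markers, 1, 1, 3 and 0 fell in the reported fit, in WT no more than the share over all genes. In the adjusted fit, Emcn, Kdr and Vwf fell in WT unloading (adjusted p = 0.000866, 0.0487 and 7.46e-05). They fell in WT diabetes too (adjusted p = 0.0031, 0.0392 and 0.0404). Of all genes, 13.2% and 12.5% were called lower in that fit. The endothelial sums were 223 to 307 CPM in the WT controls and 176 to 219 after unloading, without overlap. In WT diabetes they were 191 to 252 CPM, with overlap. The Notch2-mKO endothelial sums, 179 to 327, 150.2 to 209 and 179.7 to 241 CPM, overlapped. The fibre markers summed to 159200.0 to 207700.0 CPM in WT unloading, 160700.0 to 218120.0 in WT diabetes and 191430.0 to 215380.0 in Notch2-mKO diabetes, below the controls of their genotype (234420.0 to 286260.0 and 221020.0 to 251410.0) without overlap, and to 122850.0 to 225090.0 in Notch2-mKO unloading, with overlap. Of these 8 markers 3, 4, 2 and 1 fell and 0 rose. Macrophage markers summed to 64.8 to 75.3 CPM in the WT controls and 46 to 59.3 after unloading, without overlap, and 4 of 8 fell there, while their sums overlapped the controls in the other 3 comparisons. The part of these cell types in the collagen differences was not tested.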

How the data were processed

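RNA of mouse gastrocnemius was sequenced in 24 libraries, 6 groups of 4 (wild type and Notch2-mKO as controls, after unloading and in diabetes), with groups taken from the sample titles. The authors deposited estimated counts per gene, which need not be whole, on RefSeq gene models per the file headers and on the mm10 assembly (from the submitters' processing notes). Which aligner and counting tool they used, and whether strand was used, is not given in the sources used here. The tables also hold the authors' log2 values, deposited after subtraction of the control mean; they entered 1 alternative. Overlapping genes on opposite strands, such as Col4a1 and Col4a2 with an overlap of 85 bases, may therefore share reads. All 8 control columns occur in 2 tables and were identical there.

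Estimated counts were rounded. Testing used edgeR 4.0.16 (R 4.3.3) and its quasi-likelihood method, as 1 model with a coefficient per group over all libraries, TMM factors and the default expression filter, with Benjamini-Hochberg adjustment over the 13048 genes kept. Adjusted p-values of single genes are from that model except where another is named. The common biological coefficient of variation was 19.97%. Standard errors and 95% intervals come from the fit, group values are mean CPM ± SD, and chain ratios were tested by exact permutation. Levels per kb use transcript lengths, and positions and promoters are RefSeq GRCm38.p6. Of the list genes, 9 were matched through older symbols. Alternatives were RLE and upper quartile scaling, no filter, DESeq2 1.42.0, only the groups compared, a replicate block, offsets for GC content and length (98.96% of tested genes had both), limma 3.58.1 on the authors' log2 values, and each library left out. The script was tested on simulated counts. The naming rule covers every member, gives all library values for a list of main chains (of which Col25a1 fell under the count minimum) and for any other called in at least 3 comparisons or with the smallest p of its class, and names up to 8 pathway genes by smallest p. Members and lists were chosen with earlier results of these data known.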

Additional observations from a re-analysis of the deposited data

Results flagged for a closer look

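Each of the 33 chains in each of the 6 groups was searched for a library whose gap to its nearest neighbour exceeded Dixon's critical share of the group's range for 4 libraries. Of 198 such groups 15 met this, and chance gives about 1 in 20. Among the abundant chains, Col1a2 stood at 150 CPM in Notch2-mKO unloading library 3, and the other 3 libraries lay from 82.5 to 90.1. The same library held Col5a1 at 31.8 CPM. Col6a2 and Col6a3 stood at 120.2 and 69.6 CPM in Notch2-mKO control library 4, the library without which the Notch2-mKO counts drop to 3 and 4. Col4a1 was at 59.2 CPM in Notch2-mKO diabetes library 4 and Col6a1 at 50.2 CPM in library 1 of that group. Col6a3 was at 12.9 CPM in WT diabetes library 3, the lowest library for 22 members.

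The fibril-associated chains gave 3 low values: Col22a1 at 19.6 CPM in Notch2-mKO control library 2 and at 10.9 CPM in Notch2-mKO diabetes library 3, and Col14a1 at 7.27 CPM in Notch2-mKO control library 3. The remaining 5 concern rare chains. Col8a1 was at 0.566 CPM in Notch2-mKO unloading library 4, Col4a5 at 2.04 CPM in WT control library 2 and Col4a3 at 0 CPM in WT control library 3. Col9a1 was at 2.13 CPM in WT diabetes library 4 and at 0.581 CPM in Notch2-mKO control library 3. No interaction between genotype and treatment was called for any chain.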

How the results depend on the processing

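Of the 69 differences called, 0 changed sign under any alternative, and 26 differences not called in the reported fit passed under some alternative. With RLE or upper quartile scaling all 69 stayed called; with DESeq2 or with no filter 68 did, with offsets for GC content and length 63, with only the groups compared 61, and with limma, run on the deposited log2 values, 32. That limma fit called 13 members in WT unloading, 13 in WT diabetes, 0 in Notch2-mKO unloading and 6 in Notch2-mKO diabetes. A fit of only the groups compared called 8 in Notch2-mKO unloading and 1 in Notch2-mKO diabetes against unloading, and DESeq2 called 1 in WT diabetes against unloading; the causes were not tested. With single libraries left out, counts ran from 16 to 21 (WT unloading), 16 to 19 (WT diabetes), 3 to 14 (Notch2-mKO unloading), 4 to 18 (Notch2-mKO diabetes) and 0 to 1 (WT diabetes against unloading), and stayed at 0 for genotype, interaction and Notch2-mKO diabetes against unloading. The shares of all genes called in the alternatives of this section are not given, except with the offsets for GC content and length. Depth limits the rare chains: Col4a3, Col24a1 and Col28a1 have fewer than 3 counts in at least 1 library.

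Replicate numbers are shared between groups, but nothing in the labels says that they pair samples. Correlations of the deviations of same-numbered libraries ran from -0.171 to 0.291, in no comparison all above 0.1. The highest was for replicate 3 of the Notch2-mKO and WT controls, where replicate 4 gave 0.155. With the replicate block, 20, 18, 10 and 14 members were called in the 4 treatment comparisons, and 0 in the others; with the block and the offsets for GC content and length, 19, 16, 8 and 13.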

Other observations

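Of the 43 collagen rows, 10 had a mean count under 10 and are not described above. Col17a1, Col27a1, Col4a6, Col9a2 and Col2a1 had means of 9.65, 8.58, 7.42, 6.97 and 6.83 counts and were tested. Col6a5, Col25a1, Col9a3, Col10a1 and Col6a4 had means of 2.92, 1.21, 0.75, 0.514 and 0.167 counts and were not. Col25a1, a transmembrane collagen of muscle needed for motor innervation, was at 0 in 14 of the 24 libraries, and Col2a1, the main collagen of cartilage, in 7.

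The type IV genes lie in head-to-head pairs. In RefSeq the gene models of Col4a1 and Col4a2 overlap by 85 bases on chromosome 8, and those of Col4a4 and Col4a3 by 114 bases on chromosome 1. Both Col4a1 and Col4a2 were called in all 4 treatment comparisons, and Col4a3 and Col4a4 in none.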
